A study of Mus musculus with 7 samples.

Results

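The complement and coagulation genes encode the soluble and membrane proteins of both plasma cascades, together with their receptors, inhibitors and the enzymes of fibrinolysis. The members are given by symbol, in a list made with earlier results of these data known, and all 46 of its genes were found among the 24328 gene symbols of the data. They were measured by poly(A) RNA-seq in kidneys of C57BL/6J mice at 4 weeks of age. The LBR-null group held 3 mice, 4001, 4002 and 4007, homozygous for the loss-of-function allele ic-J of Lbr (Lbric-J/ic-J), and the WT group held a single littermate, 4009 (Lbr+/+). The lamin B receptor, encoded by Lbr, is a protein of the inner nuclear membrane that binds heterochromatin, and the allele acts in every cell of the body. RNA came from the pulverised right kidney, with 2 libraries from every mouse but 4002, which had 1. Values are normalized counts, that is, reads on a gene divided by the size factor of the library. The libraries of a mouse were averaged, and the mouse was the unit of comparison, so that every comparison was of 3 mice with 1.

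Complement is activated through C1q and C1r on antibody complexes, through mannose-binding lectins on sugars, or spontaneously through the alternative pathway, and all routes meet at C3 and end in the membrane attack complex of C5 to C9. In coagulation, tissue factor and factor VII start a chain of proteases that leads to thrombin, which turns fibrinogen into fibrin, and plasmin later dissolves the clot. Hepatocytes make most of the circulating proteins of both systems. Macrophages make C1q, endothelial cells make von Willebrand factor and thrombomodulin, and the kidney tubule makes large amounts of urokinase, encoded by Plau.

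The 7 libraries held 20694016 to 26333284 reads on genes, and 1 read was worth 0.787 to 1.15 normalized counts. Lbr itself stood at 322, 340 and 472 normalized counts in the LBR-null mice and at 398 in the WT mouse, so RNA level did not separate the genotypes. Mouse 4001 held both Xist (5785 normalized counts) and some RNA of the Y-linked gene Ddx3y (141). Mouse 4007 had more Xist (9940) and less Ddx3y (44.3). High Ddx3y (1516 and 1284) with low Xist (65.3 and 35.5) marked mouse 4002 and the WT mouse. Only mouse 4002 among the LBR-null mice was thus like the WT mouse in both genes. Sex as read from these genes was not balanced between the genotypes, and its part in the differences was not tested. Mouse 4001 also had the highest albumin RNA, with Alb at 8759 normalized counts, while mouse 4002 had 2245, mouse 4007 had 1546 and the WT mouse had 1565. The main counts are therefore given with and without this mouse. The 2 libraries of a mouse differed by a median of 0.245 (mouse 4001), 0.12 (mouse 4007) and 0.126 (WT) on the log2 scale over the 46 genes.

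Of the 46 genes, 20 (43.5%) had a mean over the LBR-null mice at least 2-fold above WT, and 1, C1ra, was at least 2-fold below it. The same rule was met upward by 22.7% and downward by 8.8% of the 21468 genes detected. Without mouse 4001 the counts were 9 genes higher (19.6%) and 5 lower (10.9%), against 21.7% and 9.07% of the genes detected in the remaining mice, so without this mouse the share of higher members was not above this background. Among genes with a mean of at least 5 normalized counts, which all 46 members reached, 14.5% were at least 2-fold higher with all mice and 13.6% without mouse 4001. Every LBR-null library lay above both WT libraries for 19 genes (41.3%) and below both for 7 (15.2%), against 22.2% and 21.4% of all genes, and without mouse 4001 the counts were 19 and 10 of 46, against 33.2% and 29.5% of all genes. The median log2 fold change over the members was 0.61, with 1.22 for mouse 4001, 0.21 for mouse 4002 and 0.22 for mouse 4007. Over all genes tested the median of the log2 fold change was 0.0073.

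In the test of single genes (limma with Benjamini-Hochberg adjustment over 17283 genes, 2 residual degrees of freedom), no member had both an adjusted p under 0.05 and a difference of at least 2-fold, and 0% of all genes did. At an unadjusted limma p below 0.05, 7 members were higher (F13a1, C6, C9, Kng1, Fgg, Fga and C8a) and 5 lower (Cfb, Thbd, C1qb, C1qc and C1ra), that is 15.2% and 10.9% of the members against 10.7% and 8.05% of all genes. DESeq2 on the recovered reads, with Benjamini-Hochberg adjustment, called Fga, Fgg and C8a higher and C1ra lower, against 3.24% and 3.48% of all genes, and gave an adjusted p for 44 of the 46 members. The quasi-likelihood test of edgeR called none of the members, 1 gene higher and 27 lower in all. Calls of DESeq2, and those of limma with a mouse left out, are named as such below, and elsewhere values are given without a call.

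**Figure D1:**
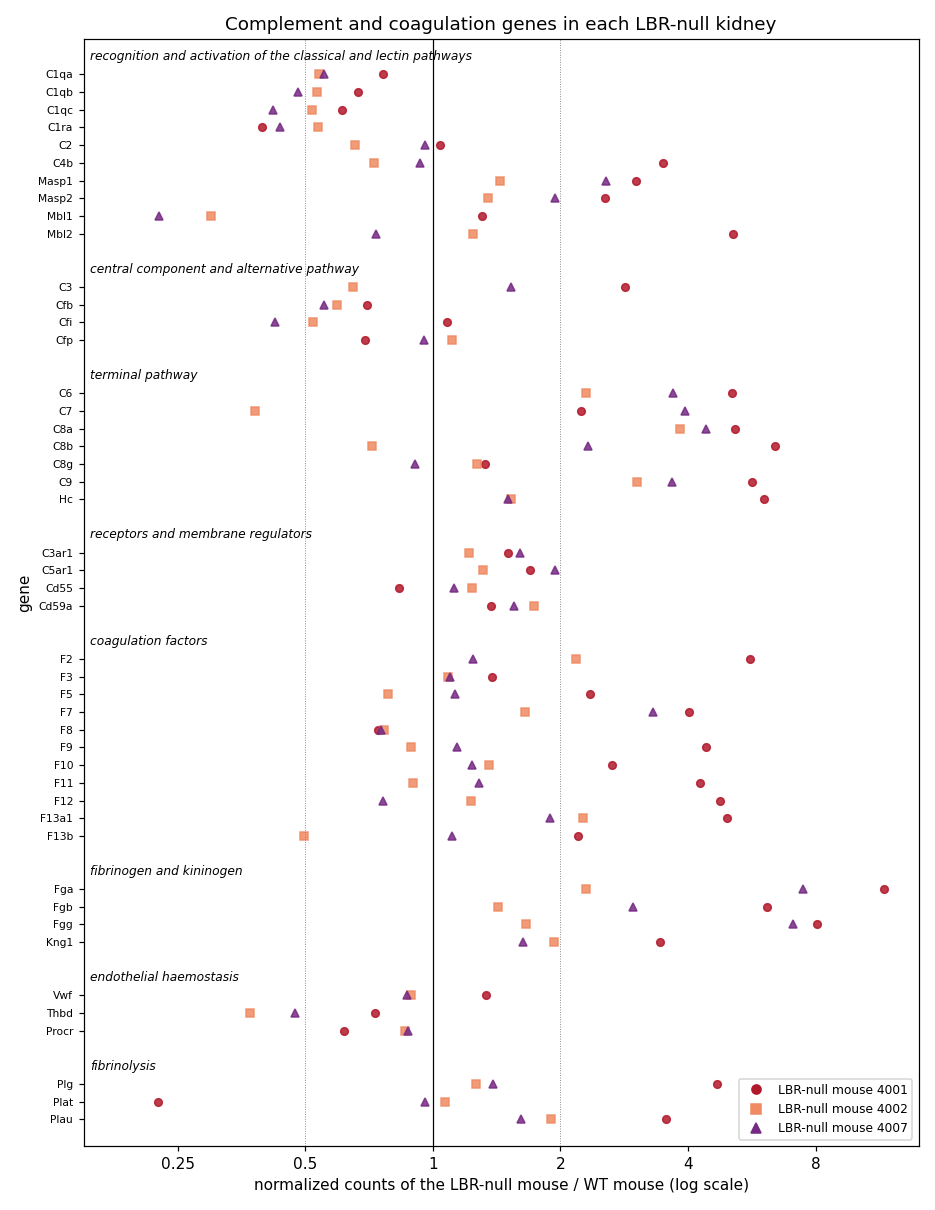
Normalized counts of each LBR-null mouse divided by those of the WT mouse (x axis, log scale, no unit) for the 46 genes (y axis), ordered by role. Circles are mouse 4001, squares mouse 4002 and triangles mouse 4007, each the mean over its libraries, and dotted lines mark 2-fold differences. All 3 mice lie above 1 for the fibrinogen genes and below 1 for the C1q genes, and mouse 4001 lies to the right of the others for 36 of 46 genes.

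Fga and Fgg, of the fibrinogen genes, showed the widest differences of all members. Fibrinogen is built of an alpha, a beta and a gamma chain, encoded by Fga, Fgb and Fgg, which lie side by side on mouse chromosome 3 (in mm9, Fgg at 82811781 to 82818975 and Fga at 82830075 to 82838036 on the plus strand, Fgb at 82846169 to 82853725 on the minus strand). The gaps between the gene models were 11099 bp from Fgg to Fga and 8132 bp from Fga to Fgb. C8a, which encodes the alpha chain of complement component C8, was above WT by a similar amount in all 3 mice and lies on chromosome 4 (104488284 to 104549003, minus strand, mm9), 11130 bp from C8b. The 300 bp around the start of these 4 genes are shown because the results that follow turn on these genes. They are RefSeq starts on GRCm38.p6, from 250 bp before to 50 bp after the start, and all 4 are given 5′ to 3′ on the strand of the gene. Capitals mark the half-site of HNF1, a hepatocyte and tubule transcription factor, searched as GTTAAT, and an element of acute-phase genes answering to IL-6, searched as CTGGGA, each on either strand. The windows are chr3:83025903-83026202 (plus) for Fga, chr3:83049814-83050113 (minus) for Fgb, chr3:83007474-83007773 (plus) for Fgg and chr4:104876349-104876648 (minus) for C8a.
Fga: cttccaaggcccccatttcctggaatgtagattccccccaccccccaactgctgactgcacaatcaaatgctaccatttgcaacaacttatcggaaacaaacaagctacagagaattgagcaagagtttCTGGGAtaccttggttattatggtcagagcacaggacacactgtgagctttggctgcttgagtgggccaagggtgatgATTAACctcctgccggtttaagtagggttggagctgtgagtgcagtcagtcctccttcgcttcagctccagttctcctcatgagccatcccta
Fgb: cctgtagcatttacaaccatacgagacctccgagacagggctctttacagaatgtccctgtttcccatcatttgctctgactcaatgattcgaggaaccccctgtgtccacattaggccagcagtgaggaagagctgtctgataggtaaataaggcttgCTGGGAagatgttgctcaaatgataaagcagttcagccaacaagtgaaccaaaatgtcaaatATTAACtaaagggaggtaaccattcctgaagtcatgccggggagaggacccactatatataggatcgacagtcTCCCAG
Fgg: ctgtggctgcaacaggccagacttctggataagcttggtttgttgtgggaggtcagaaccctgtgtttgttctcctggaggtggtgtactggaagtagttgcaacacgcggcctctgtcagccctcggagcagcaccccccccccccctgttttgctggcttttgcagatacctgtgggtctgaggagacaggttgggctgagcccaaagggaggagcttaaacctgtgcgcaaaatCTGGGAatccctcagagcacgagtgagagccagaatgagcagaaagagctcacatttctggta
C8a: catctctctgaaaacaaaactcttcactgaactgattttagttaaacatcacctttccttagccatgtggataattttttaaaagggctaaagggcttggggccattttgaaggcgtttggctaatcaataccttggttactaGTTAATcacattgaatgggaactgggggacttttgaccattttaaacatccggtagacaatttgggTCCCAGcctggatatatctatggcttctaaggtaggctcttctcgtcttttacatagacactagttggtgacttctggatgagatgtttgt

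The HNF1 half-site stood 43 bp before the start of Fga, 29 bp before that of Fgb and 107 bp before that of C8a, and its letters were not in the window of Fgg. CTGGGA stood 121 bp before the start of Fga, 91 bp before that of Fgb with a further copy 44 bp after it, 13 bp before that of Fgg and 41 bp before that of C8a. A promoter window was at hand for 34 of the 46 members. Of these, 11 (32.4%) held GTTAAT (C1ra, C7, C8a, C8b, Cd55, Cfp, F13b, F2, Fga, Fgb and Hc), against 8.24% of 27025 genes with a window. CTGGGA was present in 16 (47.1%) against 34.8%, the C/EBP motif TTGCNNAA in 8 (23.5%) against 12.2%, and the STAT motif TTCNNNGAA in 7 (20.6%) against 9.55%. The motifs were chosen after the expression values were known, and a match describes letters in a window, not binding.

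Fga stood at 6377 and 5870 normalized counts in the libraries of mouse 4001, at 1217 in mouse 4002 and at 3923 and 3969 in mouse 4007, against 514 and 543 in the WT libraries. Every LBR-null library was above both WT libraries, with mouse 4002 closest to them. The mean over the LBR-null mice was 3762 ± 2458 normalized counts (SD, n = 3) against 529, a log2 fold change of 2.54 (SE 0.81, limma, Benjamini-Hochberg adjusted p = 0.172). DESeq2 gave an adjusted p of 0.0022 with all mice and of 0.324 without mouse 4001, where the log2 fold change was 2.28. Without mouse 4002, the mouse closest to WT and like it in Xist and Ddx3y, the limma log2 fold change was 3.22.

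Fgg, the gamma chain gene, stood at 1694 and 1221 in mouse 4001, 301 in mouse 4002 and 1283 and 1274 in mouse 4007, against 175 and 187 normalized counts in WT. As for Fga, mice 4001 and 4007 were far above WT and mouse 4002 was nearest to it. The log2 fold change was 2.18 (SE 0.85, limma adjusted p = 0.241), and DESeq2 gave an adjusted p of 0.0137 at a log2 fold change of 2.46 with all mice, and of 0.47 at 2.12 without mouse 4001. Leaving out mouse 4002 would set only mice high in Xist against the WT mouse for Fgg and Fgb as well. Fgb, the beta chain gene, stood at 1128 and 708 in mouse 4001, 212 in mouse 4002 and 433 and 450 in mouse 4007, against 158 and 140 in WT, and its log2 fold change was 1.56 (SE 0.73, limma adjusted p = 0.316). The groups did not overlap for any of the chains.

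Per kb of exon, the chains were not at an equal level. Fga stood at 1283 normalized counts per kb in the mean of the LBR-null mice and 180 in WT, Fgb at 319 and 90.8, and Fgg at 515 and 92.2. The ratio of Fga to Fgb per kb was 3.17 and 4.65 in mouse 4001, 3.21 in mouse 4002 and 5.08 and 4.94 in mouse 4007, above the 1.82 and 2.17 of WT in every LBR-null library. The ratio of Fga to Fgg was 2.05 to 3.22 in LBR-null libraries and 1.97 and 1.94 in WT.

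**Figure D2:**
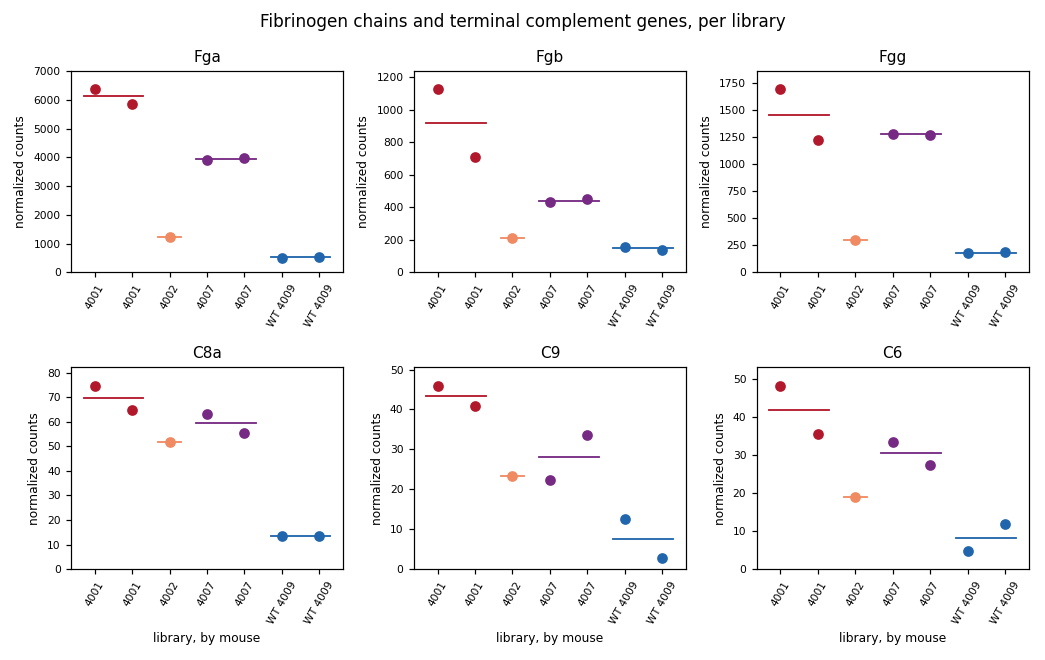
Normalized counts (y axis, linear from 0) of the 3 fibrinogen chain genes and of C8a, C9 and C6 in each of 7 libraries (x axis, labelled by mouse). Points are libraries and bars are the mean of a mouse, with the WT mouse in blue. Every LBR-null library lies above both WT libraries in all 6 panels, and mouse 4002 is the lowest LBR-null mouse in each.

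Kng1 encodes kininogen, the source of bradykinin and a cofactor of contact activation. It stood at 560 and 490 normalized counts in mouse 4001, 296 in mouse 4002 and 246 and 254 in mouse 4007, against 146 and 159 in WT. All LBR-null values were above WT (log2 fold change 1.14, SE 0.45, limma adjusted p = 0.245). Kng2 is a near-identical copy, so the division of reads between them is uncertain, and it stood at 20568 ± 6470 normalized counts against 9238 (SD, n = 3).

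Of the 7 terminal pathway genes, 6 were at least 2-fold higher and none lower, and 4 (C6, C8a, C9 and Hc) were higher in every LBR-null library. Without mouse 4001, 4 were at least 2-fold higher. Over all genes, 22.7% were at least 2-fold higher (21.7% without mouse 4001) and 22.2% were higher in every library. C8a stood at 74.6 and 64.8 normalized counts in mouse 4001, 51.6 in mouse 4002 and 63.3 and 55.6 in mouse 4007, against 13.4 and 13.6 in WT. The LBR-null values lay close together and all were well above WT. The log2 fold change was 2.07 (SE 0.43, limma adjusted p = 0.107), and DESeq2 gave an adjusted p of 0.00605 with all mice and 0.0367 without mouse 4001. Without that mouse the limma log2 fold change was 1.96.

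C9 encodes the protein that polymerises into the pore of the attack complex, and C6 one that joins the complex before it. C9 stood at 45.9 and 40.8 in mouse 4001, 23.2 in mouse 4002 and 22.4 and 33.7 in mouse 4007, against 12.6 and 2.71 normalized counts in WT. C6 stood at 48.2 and 35.5, 18.9, and 33.5 and 27.3 in the same order, against 4.72 and 11.8 in WT. Neither overlapped WT, but both rest on few reads, with 3 to 46 reads per library for C9 and 6 to 42 for C6. Their log2 fold changes were 1.86 (SE 0.54, limma adjusted p = 0.148) and 1.70 (SE 0.58, limma adjusted p = 0.195).

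Hc, which encodes C5, stood at 131 and 72.8 in mouse 4001 and at 21.0 to 29.8 in the other LBR-null libraries, against 16.5 and 17.2 in WT. The separation was therefore wide in mouse 4001 and narrow elsewhere. C8b, the beta chain of C8, ranged from 3.44 to 44.8 normalized counts in LBR-null libraries and from 2.36 to 7.24 in WT, and C7 from 41.3 (mouse 4002) to 437 (mouse 4007) against 106 and 110. Both overlapped WT. C8g, the gamma chain, differed least, with 99.4 to 165 normalized counts against 112 and 113.

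The genes of the C1 complex among the members stood below WT in every LBR-null library, as did 21.4% of all genes. C1qa, C1qb and C1qc encode the chains of C1q, the recognition protein of the pathway, and lie within one cluster on chromosome 4, with 3616 bp between C1qb and C1qc and 2851 bp between C1qc and C1qa in mm9. C1qa ranged from 310 to 498 normalized counts in the LBR-null libraries, with 606 and 545 in WT. C1qb ranged from 245 to 395, with 526 and 563 in WT. C1qc stood at 346 and 319 in mouse 4001, 284 in mouse 4002 and 222 and 237 in mouse 4007, against 533 and 559 in WT. All chains were below WT in every library, and in all of them mouse 4001 was the nearest to WT.

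The log2 fold changes were −0.71 for C1qa (SE 0.31), −0.85 for C1qb (SE 0.30) and −0.97 for C1qc (SE 0.31), with limma adjusted p-values of 0.286, 0.203 and 0.174. Without mouse 4001, C1qc was called lower by limma (−1.10, adjusted p = 0.0433) and by DESeq2 (−1.10, adjusted p = 0.022). Macrophage markers stood beside these genes as follows. Of 13 measured, 3 were at least 2-fold lower and 1 higher, 8 were lower and 3 higher in every LBR-null library, and none was at 0. Their summed level was 3186 to 3958 normalized counts in LBR-null libraries and 4194 to 4231 in WT. Csf1r, the receptor for macrophage colony stimulating factor, stood at 1190 ± 112 against 1609 (SD, n = 3). The part of macrophage number in the C1q values was not tested, and in whole kidney RNA, fewer cells of a type and less RNA per cell cannot be told apart.

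C1ra, the serine protease of the C1 complex, was the only member at least 2-fold lower. It stood at 331 and 288 normalized counts in mouse 4001, 420 in mouse 4002 and 346 and 334 in mouse 4007, against 796 and 770 in WT. No LBR-null library came near either WT library. The log2 fold change was −1.14 (SE 0.29, limma adjusted p = 0.12), and DESeq2 gave an adjusted p of 0.0213 with all mice and 0.019 without mouse 4001, where limma also called it (−1.05, adjusted p = 0.0421). Of 7 fibroblast markers, 2 were at least 2-fold higher and 3 lower (none and 4 without mouse 4001), none was at 0, and their sum was 29184 normalized counts for mouse 4001, 16916 for mouse 4002, 17895 for mouse 4007 and 41032 for WT, and their part in the C1ra value was not tested. Col1a2 stood at 5144 ± 845 against 15137 and Col3a1 at 3959 ± 3809 against 11205 (SD, n = 3), with Col3a1 at 8290 in mouse 4001. The markers at least 2-fold higher were Dcn, at 5799 ± 3015 against 2862.5, and Lum, at 378 ± 589 against 146 (SD, n = 3). The near-identical C1rb stood at 0.86 to 8.04 in LBR-null libraries and at 0 and 5.43 in WT, so few reads were assigned to it. C2, the protease that cleaves C3 in the classical and lectin convertase, overlapped WT (596 to 950 against 945 and 875). C4b, the C4 gene, stood at 358 and 252 in mouse 4001 and at 63.6 to 82.9 in the other LBR-null libraries, against 83.5 and 91.4, and reads may be split with C4a.

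In the lectin pathway, Masp1 and Masp2, the proteases of the lectin complexes, were above WT in every LBR-null library. Masp1 stood at 31.8 to 66.6 normalized counts against 18.9 and 25.3 (log2 fold change 1.12, SE 0.54, limma adjusted p = 0.327), and Masp2 at 8.60 to 18.4 against 5.51 and 7.24. The mannose-binding lectins themselves overlapped WT. Mbl2 stood at 83.8 and 50.6 in mouse 4001 but at 8.38 to 16.3 in the other mice, against 11.8 and 14.5. Mbl1 stood at 17.2 and 20.4 in mouse 4001 and at 1.82 to 4.66 in the other LBR-null libraries, below the 13.4 and 15.4 of WT.

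**Figure D3:**
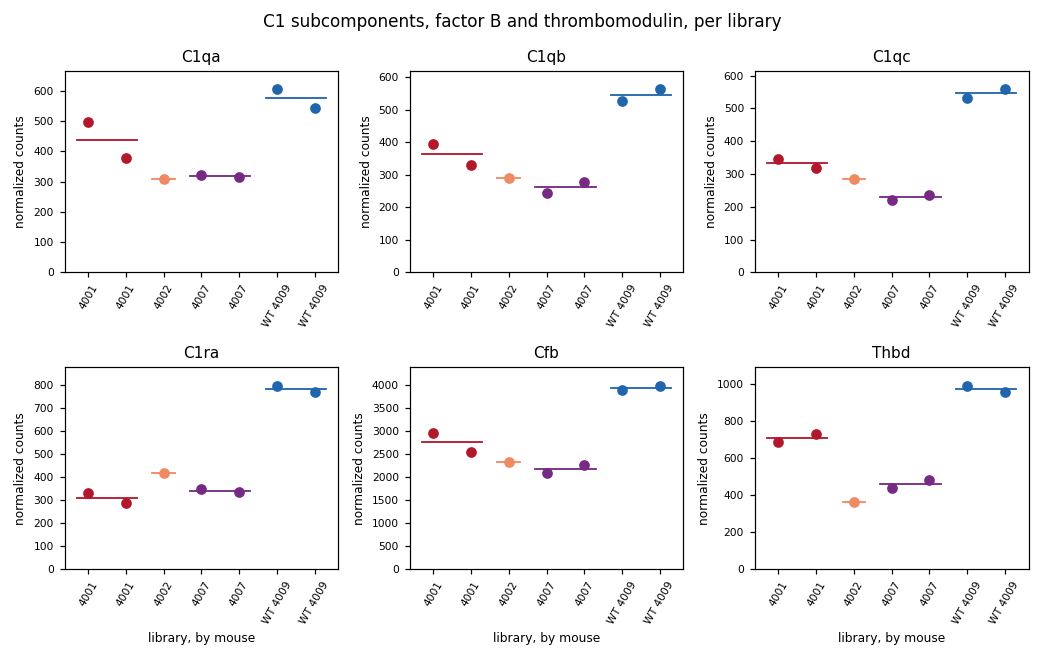
Normalized counts (y axis, linear from 0) of the C1q chain genes, C1ra, Cfb and Thbd in each of 7 libraries (x axis, labelled by mouse). Points are libraries and bars are the mean of a mouse, with the WT mouse in blue. Every LBR-null library lies below both WT libraries in all 6 panels.

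Of the central and alternative pathway genes, only Cfb was separate from WT in every library. It encodes factor B, the protease of the alternative convertase, and stood at 2967 and 2558 normalized counts in mouse 4001, 2339 in mouse 4002 and 2090 and 2275 in mouse 4007, against 3892 and 3993. The log2 fold change was −0.71 (SE 0.26, limma adjusted p = 0.212). Cfb starts 85 bp downstream of the end of C2 on the same strand, so the assignment of reads at this border is uncertain. C3, on which all pathways converge, stood at 2739 and 2054 in mouse 4001, 546 in mouse 4002 and 1260 and 1322 in mouse 4007, on both sides of the 819 and 867 of WT. Cfi, a protease that inactivates C3b and C4b, stood at 154 and 160 in mouse 4001 and at 58.3 to 75.7 in the other mice, against 139 and 151. Cfp, or properdin, which stabilises the alternative convertase, stood at 153 to 264 against 237 and 239.

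The receptors for the anaphylatoxins C3a and C5a, C3ar1 and C5ar1, were above WT in every LBR-null library, by less than 2-fold. C3ar1 stood at 65.3 to 92.2 normalized counts against 51.2 and 56.1, and C5ar1 at 41.3 to 63.3 against 28.4 and 34.4, with limma adjusted p-values of 0.521 and 0.449. Both are receptors of myeloid cells, and the lists of myeloid markers differed in direction. Of 13 macrophage markers, 8 were lower and 3 higher in every LBR-null library. Of 10 neutrophil markers, 9 were at least 2-fold higher and 1 lower, and their summed level was 464 to 2761 normalized counts against 199 and 208 in WT. S100a8 stood at 513 ± 377 against 50.1 and S100a9 at 433 ± 402 against 8.23 (SD, n = 3). The part of either cell type in the values of both receptors was not tested. Cd59a, which blocks the assembly of C9, stood at 3292 to 4524 against 2681 and 2530 (log2 fold change 0.63, SE 0.26, limma adjusted p = 0.269), while Cd55, which speeds the decay of the C3 convertases, overlapped WT (233 to 358 against 291 and 283).

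Of the 11 coagulation factor genes, 6 (54.5%) were at least 2-fold higher and none lower, beside 22.7% and 8.8% of all genes. In every LBR-null library 4 (F2, F3, F7 and F13a1, 36.4%) were higher and 1 (F8, 9.09%) lower. The shares of all genes by this rule were 22.2% and 21.4%. Without mouse 4001, 2 (18.2%) were at least 2-fold higher, beside 21.7% of all genes and 13.6% of those with a mean of at least 5. F13a1, the catalytic chain of factor XIII, which crosslinks fibrin, stood at 198 and 199 normalized counts in mouse 4001, 90.3 in mouse 4002 and 66.1 and 84.8 in mouse 4007, against 45.7 and 34.4. Its log2 fold change was 1.44 (SE 0.59, limma adjusted p = 0.261), and platelet and megakaryocyte markers, which mark another source of this chain, summed to 331 to 535 normalized counts in LBR-null libraries and 485 to 505 in WT. F13b, the carrier chain of factor XIII, stood far higher, at 3060 and 3105 in mouse 4001, 696 in mouse 4002 and 1524 and 1583 in mouse 4007, against 1419 and 1386, and overlapped WT. F3, tissue factor, stood at 463 to 629 against 436 and 415, a narrow separation (log2 fold change 0.24, SE 0.27, limma adjusted p = 0.686). F8, which encodes factor VIII, was lower in every LBR-null library, with 146 to 183 normalized counts against 237 and 205 (log2 fold change −0.40, SE 0.29, limma adjusted p = 0.51).

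The vitamin K-dependent and contact factors were mostly low. F2, or prothrombin, stood at 220 and 121 normalized counts in mouse 4001, 66.2 in mouse 4002 and 37.3 and 38.3 in mouse 4007, against 35.4 and 25.3 in WT. F12, which starts contact activation, stood at 94.2 and 32.8 in mouse 4001 and at 9.11 to 16.3 elsewhere among the LBR-null libraries, against 15.7 and 10.9. F7, F9 and F11, which encode factors VII, IX and XI, held as few as 2 reads in a library, so their folds are not given. F10, factor X, stood at 18.2 to 57.4 and F5, the cofactor of factor X, at 23.2 to 80.4 normalized counts, and both overlapped WT (14.5 to 23.6 and 22.1 to 37.1).

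Of the 21 members listed as made mainly by hepatocytes (C6, C8a, C8b, C8g, C9, Hc, Mbl1, Mbl2, Masp2, F2, F7, F9, F10, F11, F12, F13b, Fga, Fgb, Fgg, Plg and Kng1), 16 (76.2%) were at least 2-fold higher. Without mouse 4001, 7 (33.3%) were, with 1, Mbl1, at least 2-fold lower. In WT, F13b of this list stood at 1402.5 normalized counts, beside 1565 for Alb and 30.4 for F2. The list does not give the source of the RNA in these kidneys, which was not tested. Of the other 25 members, 4 were at least 2-fold higher and 1 lower, and without mouse 4001 the counts were 2 and 4. The shares of these 25 members upward were 16% and 8%, beside 22.7% and 21.7% of all genes and 14.5% and 13.6% of those with a mean of at least 5. C2, C3, C4b, Cfb, Cfi and F5, which the liver makes too, are not on the hepatocyte list, none of them was at least 2-fold higher, and the division was made with earlier results of these data known. Mouse 4001 was the highest LBR-null mouse for all 21 hepatocyte members, and in this mouse 19 were at least 2-fold above WT, with 5 in mouse 4002 and 8 in mouse 4007. Of all genes with a mean of at least 5, 15.8%, 11.8% and 15% were at least 2-fold above WT in these 3 mice, in that order. Hepatocyte markers were set beside these members. Of 20, 16 (80%) were at least 2-fold higher and none lower, beside 22.7% and 8.8% of all genes. Without mouse 4001, 5 (25%) were higher, beside 21.7% of all genes and 13.6% of those with a mean of at least 5. None of the markers was at 0 in any library. Their summed level was 11480 to 33377 normalized counts in LBR-null libraries and 7266 to 7621 in WT, with means of 28098 for mouse 4001, 12970 for mouse 4002 and 11570 for mouse 4007. Serpina1a, which encodes alpha-1-antitrypsin, stood at 5843 ± 1560 against 1369 (SD, n = 3).

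Each member was therefore set against Alb in the same library, as normalized counts per 1000 of Alb. Among the other hepatocyte markers, Ahsg stood at 78.5 to 100 per 1000 in LBR-null libraries and 80.3 to 87.5 in WT, and Serpina3k at 74.4 to 94.0 and 76.3 to 78.3, a nearly constant ratio over all libraries. Other markers did not keep one. Serpina1a stood at 736 to 3683 per 1000 against 863 to 887, and Apoh at 35.2 to 229 against 19.0 to 21.2 and Tat at 16.5 to 26.1 against 15.7 to 16.1, both above WT in every LBR-null library. These markers were picked out after their values were seen. Of the 21 hepatocyte members, 3 were above WT in this ratio in every LBR-null library, 2 were below and 16 overlapped it, while 1.83% of all genes with a mean of at least 5 were above and 39.1% below. Overlap includes genes whose LBR-null ratios lay on both sides of WT, such as F13b at 275 to 1053 per 1000 against 882 to 910 and Kng1 at 50.3 to 169 against 93.9 to 101, both below WT in mouse 4001. The largest ratio over the 7 libraries was under 2 times the smallest for 5 of the 21, which were F2, Mbl2, F12, Plg and Hc. F2 stood at 18.9 to 29.5 per 1000 against 16.1 to 22.7, Mbl2 at 5.28 to 7.92 against 7.58 to 9.21, F12 at 5.14 to 8.46 against 6.91 to 10.1, and Plg at 24.5 to 41.8 against 23.2 to 35.7. These genes were picked out for their steady ratio, and their higher levels in mouse 4001 came with a similarly higher level of Alb. The part of liver RNA in the kidney samples was not tested.

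Fga, Fgg and Hc were the hepatocyte members whose ratio to Alb was above WT in every LBR-null library, and C8g and Mbl1 those for which it was below. Fga stood at 573 and 919 per 1000 of Alb in mouse 4001, 542 in mouse 4002 and 2469 and 2641 in mouse 4007, against 330 and 345 in WT. Fgg stood at 152 and 191, 134, and 808 and 848, against 112 and 119. Mouse 4007, whose Alb was near that of WT, thus held the highest ratios for both chains. Hc stood at 11.4 to 18.8 per 1000 against 10.6 and 10.9, a small difference. C8a overlapped WT only in mouse 4001, with 6.70 and 10.1 per 1000, and stood at 23.0 to 39.9 in the other mice, against 8.59 and 8.64.

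**Figure D4:**
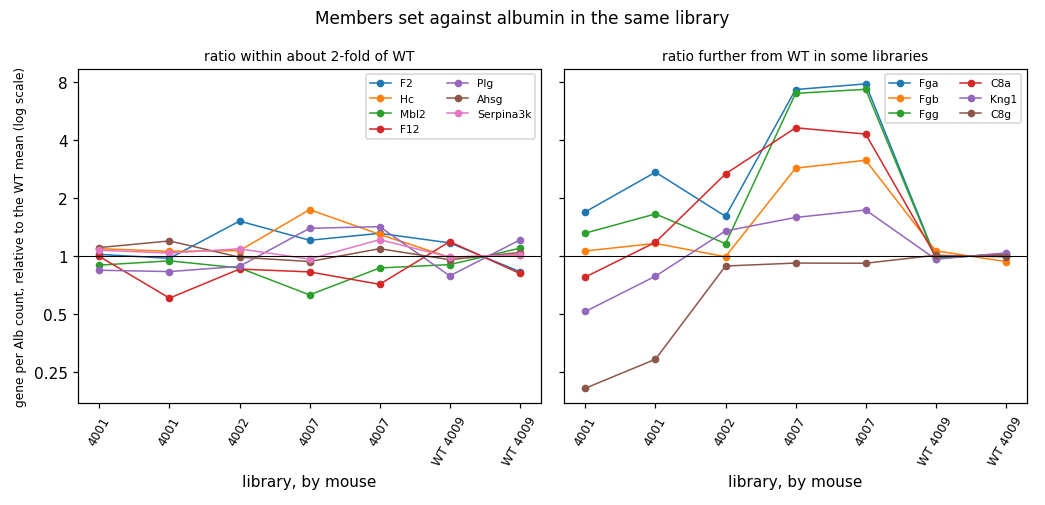
Ratio of a gene to Alb in the same library, divided by the mean ratio of the WT libraries (y axis, log scale, no unit), in the 7 libraries (x axis, labelled by mouse). Lines join the values of a gene, and the genes of each panel were chosen after their values were seen. On the left, F2, Hc, Mbl2, F12, Plg and the markers Ahsg and Serpina3k stay within about 2-fold of WT, and on the right Fga and Fgg stand highest in mouse 4007 and C8g stands lowest in mouse 4001.

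Among the endothelial genes, Thbd was lower in every LBR-null library. It encodes thrombomodulin, which turns thrombin towards the activation of protein C, and stood at 687 and 733 normalized counts in mouse 4001, 361 in mouse 4002 and 438 and 483 in mouse 4007, against 991 and 957. The log2 fold change was −0.99 (SE 0.40, limma adjusted p = 0.253). Without mouse 4001 it was −1.25 with limma (adjusted p = 0.0298) and −1.26 with DESeq2 (adjusted p = 0.00305). Vwf, von Willebrand factor, overlapped WT (289 to 492 against 390 and 335), as did Procr, the endothelial protein C receptor (70.0 to 120 against 118 and 109). Endothelial markers summed to 27281 to 36156 normalized counts in LBR-null libraries and 37213 to 38102 in WT, with none of 10 at least 2-fold different and 3 lower in every library, and their part in the Thbd value was not tested.

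The plasminogen system held the most abundant member. Plau stood at 41672 and 41197 normalized counts in mouse 4001, 22145 in mouse 4002 and 18697 and 18901 in mouse 4007, against 11493 and 11833 in WT. All LBR-null values were above WT (a log2 difference of 1.15, SE 0.53, limma adjusted p = 0.307), and per kb of exon it stood at 11720 against 4978. Of 10 tubule markers, none was at least 2-fold higher, 4 were lower (5 without mouse 4001) and none was at 0, with 6 below WT in every LBR-null library and a median log2 fold change of −0.69. The most abundant in the mean over the LBR-null mice, Slc12a1 and Umod, which mark the thick ascending limb, stood at 55999 ± 16217 against 30771 and at 38852 ± 23673 against 38395 (SD, n = 3), while 4 markers of the proximal tubule, Slc34a1, Lrp2, Slc5a2 and Slc22a6, stood at 0.328, 0.351, 0.284 and 0.0562 of WT. Their part in the Plau value was not tested. Plat, tissue plasminogen activator, stood at 1117 and 1140 in mouse 4001 but at 4782 to 5364 in mice 4002 and 4007, beside 5016 and 5042 in WT. The low value was thus that of mouse 4001 alone, whose podocyte markers summed to 8306 normalized counts, with 15286 for mouse 4002, 16692 for mouse 4007 and 19926 for WT, and their part in the Plat value was not tested. Plg, plasminogen, stood at 277 and 156 in mouse 4001, 58.5 in mouse 4002 and 65.2 and 62.9 in mouse 4007, against 36.2 and 56.1.

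The study sorts genes by CpG islands (CGI) at their start. Islands were called here from sequence alone, without the CxxC binding data and the gene body rule that the study also uses, so the classes are not those of the study. The members were mostly without an island. An island within 500 bp of a start was found for 12 of the 46 members (26.1%) and for 71.2% of 19164 matched coding genes. Of the 34 members without an island, 18 (52.9%) were at least 2-fold higher, against 44.4% of all matched genes without one, and without mouse 4001, 9 (26.5%) were, against 40.9%. Among genes of this class with a mean of at least 5, which these members all reached, the shares were 32.3% with all mice and 28.0% without mouse 4001. Of the 12 members with an island (C2, C8g, Cd55, Cd59a, F3, F8, F9, F10, Thbd, Procr, Plat and Plau), 2 were at least 2-fold higher (16.7%), against 11.5% of all matched genes with one, and without mouse 4001 none was, against 10.6%.

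Other genes of both systems were taken from fixed lists. Of 29 further complement genes, 8 (27.6%) were at least 2-fold higher and 7 (24.1%) lower. Of 31 further coagulation and fibrinolysis genes, 7 (22.6%) were higher and 5 (16.1%) lower, and of all genes 22.7% were higher and 8.8% lower. Without mouse 4001 the counts were 7 and 6 for complement, and 2 and 6 for coagulation and fibrinolysis, against 21.7% and 9.07% of all genes. Cfd, or factor D, the protease that activates factor B, stood at 26.7 to 177 normalized counts in LBR-null libraries against 1000 and 1030 in WT, and Clu, or clusterin, a fluid-phase inhibitor of the attack complex, at 3161 to 4882 against 12157 and 12332. Their log2 fold changes were −4.14 (SE 0.95, limma adjusted p = 0.114) and −1.73 (SE 0.30, limma adjusted p = 0.0938), and DESeq2 called Clu (adjusted p = 2.68e-05) but not Cfd (adjusted p = 0.106). Without mouse 4001, DESeq2 also called Cfd (log2 fold change −4.92, adjusted p = 1.95e-34). Proc, protein C, the substrate of the thrombin and thrombomodulin complex, stood at 289 ± 93.3 against 952 (SD, n = 3; DESeq2 adjusted p = 0.00288), and C1rl, a C1r-like protease, at 183 ± 41.4 against 514 (DESeq2 adjusted p = 0.00646). C5ar2, the second C5a receptor, stood at 44.1 ± 6.99 against 12.4 (DESeq2 adjusted p = 0.0439, or 0.103 without mouse 4001), and the pseudogene C4bp-ps1 at 46.4 ± 4.51, a log2 fold change of 2.10 (DESeq2 adjusted p = 0.0151). Among the rest of the largest differences, Itgax, an integrin subunit of complement receptor 4, stood at 5.47 to 13.3 normalized counts against 88.2 and 58.8 (DESeq2 adjusted p = 0.00121), Proz, protein Z, at 5.47 to 38.2 against 137 and 98.6 (DESeq2 adjusted p = 0.0169), F2rl3, a thrombin receptor, at 7.45 to 21.0 against 44.9 and 44.3, and Tfpi2, a protease inhibitor, at 87.7 to 161 against 250 and 282. A2m, a broad protease inhibitor, was higher in every LBR-null library but held few reads in WT (2.36 and 0.905 normalized counts).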

How the data were processed

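Poly(A) RNA-seq of mouse kidney was used for 7 libraries of 4 mice. The deposited values are a signal, namely counts of reads divided by the DESeq2 1.25.1 size factor of each library, and the authors aligned the reads to mm9 with STAR 2.6.0; the counter and its annotation are not given in the sources used here. Reads were recovered by division, and 100% of values came out whole within 0.01 read. Libraries were averaged within a mouse. Mouse means were tested with limma 3.58.1 in R 4.3.3 as log2 values after adding 1, over genes whose mean reached 5. Benjamini-Hochberg adjustment was used, 2 residual degrees of freedom were left, and the WT spread was taken to equal that among LBR-null mice. Fold changes on this scale understate those of low genes. edgeR 4.0.16 and DESeq2 1.42.0 were run on recovered reads summed per mouse as alternatives, with TMM scaling, other filters and left-out mice or libraries. The p-values measure the spread between these mice only, and libraries of 1 mouse are not independent. The fits were tested on simulated data.

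Every member is named. Of other pathway genes, those at least 2-fold different with no overlap were named, up to 12 by size of the difference, and of each marker list the 2 with the highest level could be named; some genes that met this rule are not reported here. Near-identical copies of members, Xist, Ddx3y, Ahsg, Serpina3k, Apoh, Tat, Dcn, Lum and the proximal tubule markers were named outside this rule, after their values were seen. The members and lists were chosen with earlier results of these data known. Gene models were GENCODE on mm9, islands were windows of 201 bp with 50% GC or more and CpG above 0.6 of expectation, and promoters were RefSeq on GRCm38.p6. Whether counting used strand is not given in the sources used here, so overlapping genes cannot be told apart.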

Additional observations from a re-analysis of the deposited data

Results flagged for a closer look

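Each of the 46 members was examined for 1 library of the 5 LBR-null libraries far from the rest of them by Dixon's gap (critical value 0.71), and 3 members had one, where chance gives about 1 in 20. C2 was low in the library of mouse 4002, at 595.8 normalized counts against 865.2 to 950.4 in the other LBR-null libraries. F9 was high in library 1 of mouse 4001, at 32.15 normalized counts against 4.299 to 10.65. F12 was high in the same library, at 94.16 normalized counts against 9.115 to 32.83. Libraries of 1 mouse are not independent, so a gap may lie between mice or within one.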

How the results depend on the processing

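No paired analysis was possible because the repeat numbers of the labels count libraries within a mouse, the mouse is the replicate, and nothing pairs an LBR-null mouse with the WT mouse. DESeq2 without mouse 4001, and TMM scaling for the counts without overlap, were added after seeing the data. Members at least 2-fold higher numbered 20, with 9 to 23 when a mouse or WT library was left out (9 without mouse 4001), and lower 1, with 1 to 5 (5 without mouse 4001). Members called by limma numbered 0 in each direction, with 0 to 3 higher and 0 to 3 lower when 1 was left out, and DESeq2 called 3 higher and 1 lower. The 3 higher by limma were called without mouse 4002, which leaves only LBR-null mice high in Xist. Over all genes limma called 0, edgeR 1 higher and 27 lower, and DESeq2 539 higher and 578 lower. With a mouse or library left out, limma called 0 to 505 higher and 0 to 658 lower, the highest of each without mouse 4001, where DESeq2 called 479 higher and 729 lower. The cause was not tested. Of 58 gene results, 47 kept their direction under every alternative. The log2 fold change from limma with a mouse or library left out changed sign, always without mouse 4001, for C3 (−0.0063 to 1.0597), C4b (−0.276 to 0.846), Cfp (−0.2982 to 0.0406), Mbl2 (−0.0571 to 1.2817), F5 (−0.0859 to 0.7517), F12 (−0.0412 to 1.2252), F13b (−0.4308 to 0.6415), Vwf (−0.1857 to 0.1278) and Plat (−1.1099 to 0.0139). DESeq2 without that mouse also changed sign for C4b (−0.2695), Cfp (0.0321), Mbl2 (−0.0314), F5 (−0.0453), F12 (−0.0507), F13b (−0.3277), Vwf (−0.2048) and Plat (0.0046). C7 changed sign without mouse 4007 (−0.1091 to 1.5587), Cd55 without mouse 4002 (−0.0496 to 0.2381), and Vwf also with TMM scaling (−0.0153) and without WT library 2 (−0.0915). Members with as few as 2 reads in a library (F7, F9, F11 and Mbl1) are limited by depth.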
